A study of Mus musculus with 12 samples.

Results

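Expression of 9 genes of major histocompatibility complex (MHC) class I antigen presentation and complement was followed in the ventral hippocampus of 12 mice. The genes were chosen by symbol: B2m, H2-K1, H2-D1, Tap1, Tap2, Tapbp, C4b, C3 and Cd74. They are 9 of the 23183 gene symbols in the deposited tables, and all 9 passed the filter on low counts, as did 14541 symbols in all. RNA was sequenced from wild-type male C57BL/6J mice, naive and 8 weeks old at the start, in 4 groups of 3. Unstressed controls are written C, and sedentary mice classed as susceptible after restraint for 2 hours a day on 14 days are written SS. The other groups were susceptible mice that had the same restraint and then a running wheel, classed by behaviour as effective (SES) or ineffective (SER) responders to running. Running lasted 14 days by the sample titles and 4 weeks by the protocol text. All 12 mice share strain, sex and genotype, and the 9 stressed mice share the restraint, so the tables hold no unstressed runners and no stress-resilient mice.

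Class I molecules carry peptides to the cell surface. A polymorphic heavy chain, encoded in mice by H2-K1 and H2-D1, pairs with the light chain beta-2-microglobulin, and peptides reach the pair in the endoplasmic reticulum through the TAP1 and TAP2 transporter, with tapasin as the bridge. Complement is a protease cascade in which C4 and then C3 are cleaved and bound to surfaces, and in the brain both are known for tagging synapses that microglia remove. Cd74 encodes the invariant chain of MHC class II, the presentation route of microglia, border macrophages and dendritic cells.

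The light chain and the heavy chains have separate promoters, which are shown because the ratio of light to heavy chain transcripts was lowest in the SS mice. The sequences are RefSeq's, from GRCm38.p6 (the mm10 assembly), and cover the 250 bases before an annotated start, written 5′ to 3′ on the gene's own strand. Capitals mark motif matches. The B2m window lies on the plus strand at chr2:122147437-122147686, the H2-K1 window on the minus strand at chr17:34000334-34000583 and the H2-D1 window on the plus strand at chr17:35262844-35263093.
B2m: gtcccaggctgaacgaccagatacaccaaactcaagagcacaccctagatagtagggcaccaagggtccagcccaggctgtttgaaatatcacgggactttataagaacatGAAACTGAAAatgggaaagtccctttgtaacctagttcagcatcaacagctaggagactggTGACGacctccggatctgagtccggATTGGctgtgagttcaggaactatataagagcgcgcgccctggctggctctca
H2-K1: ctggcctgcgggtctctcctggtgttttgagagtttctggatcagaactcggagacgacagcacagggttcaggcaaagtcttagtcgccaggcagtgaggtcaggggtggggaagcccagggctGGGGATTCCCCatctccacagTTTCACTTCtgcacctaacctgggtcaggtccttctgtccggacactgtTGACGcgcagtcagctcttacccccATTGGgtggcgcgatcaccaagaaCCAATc
H2-D1: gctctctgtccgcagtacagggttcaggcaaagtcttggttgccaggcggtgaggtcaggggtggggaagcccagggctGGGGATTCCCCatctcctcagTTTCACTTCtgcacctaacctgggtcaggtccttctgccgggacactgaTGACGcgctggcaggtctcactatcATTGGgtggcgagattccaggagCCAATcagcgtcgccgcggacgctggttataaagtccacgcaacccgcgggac
The heavy chain windows were near copies of each other, with 172 of 192 aligned bases identical (89.58%), whereas the B2m window aligned with the H2-K1 window over only 68 columns, 42 of them identical. The kB palindrome GGGGANTCCCC, which reads the same on both strands, is the site in class I enhancers that NF-kB binds. Both heavy chain windows held it as GGGGATTCCCC, 125 bases upstream of the start in H2-K1 and 171 in H2-D1. H2-K1 had 2 RefSeq entries, and from the start of the other, not shown, the palindrome lay 111 bases upstream. Both H2-K1 windows lie inside the gene span given below, so these distances depend on the start chosen. The palindrome occurred in 15 of 32851 RefSeq promoter windows of the same length (0.0457%), and the B2m window had no match to it. Other forms of NF-kB site were not searched for, so their presence in the B2m window was not tested. The interferon-responsive pattern GAANNGAAA followed in both heavy chain windows (on the minus strand, TTTCACTTC) and was present in 6.31% of all windows. In B2m the longer form GAAANNGAAA, present in 2.98% of windows, matched as GAAACTGAAA, 139 bases upstream. The shorter pattern had no match in the B2m window. Each of the 3 windows also held TGACG (17.8% of all windows) followed by CCAAT or its reverse complement ATTGG (33.8% of all windows). These are matches of letters in 1 window a gene. RefSeq entries were also found for Tap1, Tapbp and C3. Tap2 and C4b had none.

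The genes lie in 3 places in the mm10 build. B2m is on chromosome 2 (122147687 to 122153082) and Cd74 on chromosome 18 (60803849 to 60812652). The other genes are on chromosome 17: Tapbp (33919478 to 33929290), H2-K1 (33996012 to 34000619), Tap1 (34187556 to 34197225), Tap2 (34204479 to 34216321), C4b (34728139 to 34743902), H2-D1 (35263094 to 35267497) and C3 (57203967 to 57228136). Some of them resemble other genes, so their reads could have been divided in doubtful ways. Of all 50-nucleotide stretches in a transcript, 8.79% in H2-K1 (most often with H2-D1), 14.3% in H2-D1 (most often with H2-Q1) and 35.2% in C4b (with C4a alone) were also found in another gene's transcripts. B2m, C3 and Cd74 shared none. In Tap2 the share was 12.6% (most often with Gm15821), in the Tap1 transcripts 0.975 and 6.47%, and in the Tapbp transcripts 11.6 and 21.0% (most often with Gm19412, which Tapbp overlaps). Of the resembling genes, H2-L had 0 to 11 counts per library, H2-Q1 1 to 13, C4a 0 to 33 and H2-Q4 30 to 166, against 152 to 389 for H2-K1, 208 to 596 for H2-D1 and 181 to 653 for C4b.

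Library totals ran from 9323607 to 15707516 counts. Some libraries stood apart within their groups. Ttr, a marker of choroid plexus, was at 3546 CPM (counts scaled to a common library size) in C mouse 2 and 5095 CPM in SS mouse 18, against 2.78 to 20.1 CPM in the other C and SS mice, and it ranged from 822 to 4700 CPM in SES and from 36.5 to 1080 CPM in SER. Malat1, a nuclear noncoding RNA, reached 3761 CPM in SS mouse 19 and 5257 CPM in SS mouse 21, with 263 to 1974 CPM in the other mice. Markers of T, NK and B cells were at or near 0, with summed levels of 0 to 1.61 CPM over 10 genes, and Ncr1 and Ms4a1 had no count in any library. Of the neuronal markers, Snap25 (1997 to 2998 CPM) and Slc17a7 (1044 to 1543 CPM) were abundant in every library. They mark neurons and not a brain region, so they do not test the hippocampal label.

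Per length of transcript, B2m was by far the most abundant of the 9, at a mean of 85.7 CPM per kilobase over the 12 mice. H2-D1 (12.1), H2-K1 (11.2) and Tapbp (9.69) followed close together, then C4b (6.22), Tap2 (2.49), Cd74 (1.63) and Tap1 (1.17), and C3 was the lowest at 0.318 CPM per kilobase. Between mice, the class I genes other than Tap1 varied little, with the highest mouse 1.69 to 2.1 times the lowest, while C4b varied 3.41-fold, Cd74 9.47-fold and C3 65.2-fold. The ratio for C3 rests on a lowest library with 1 count.

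**Figure D1:**
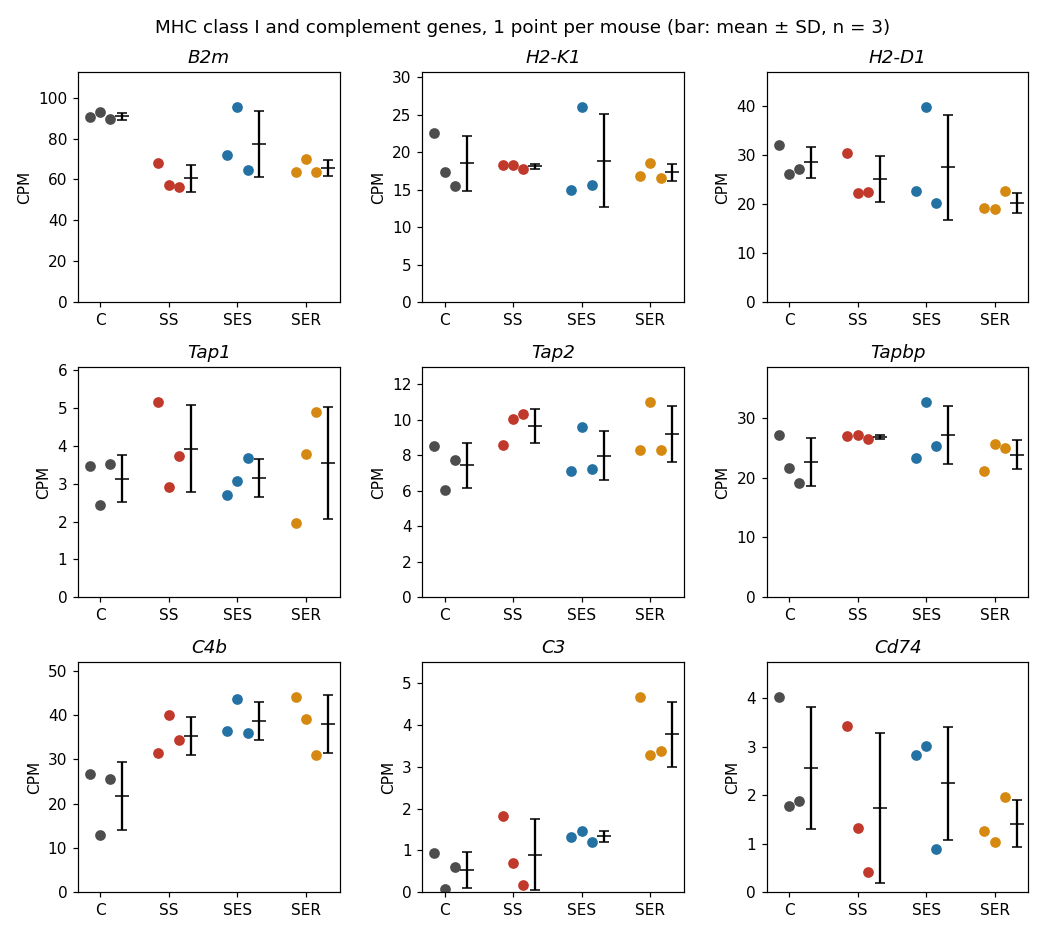
CPM (vertical axis, linear, from 0) of each of the 9 genes in the 12 mice, grouped as C, SS, SES and SER; each point is 1 mouse and the bar beside each group is the mean ± SD of 3 mice. B2m is lower in all SS mice than in all C mice, C4b is higher in all 9 stressed mice than in the 3 C mice, and C3 is higher in the 3 SER mice than in the other 9.

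B2m, the light chain of every class I molecule, was the 1 gene of the 9 that passed the test in any comparison: it fell in SS against C, where 9.83% of all tested genes were called. Its levels in C mice 2, 8 and 12 were 90.7, 92.9 and 89.4 CPM. In SS mice 18, 19 and 21 they were 68.3, 57.1 and 56.5 CPM. The 2 groups did not overlap, and the highest SS mouse was the one with choroid plexus RNA. Group means were 60.6 ± 6.61 CPM in SS and 91.0 ± 1.73 CPM in C (SD, n = 3). The log2 fold change was −0.59 ± 0.13 (standard error; edgeR adjusted p = 0.0244), so that B2m dropped by 33.4%. In these bulk samples, fewer cells of a type and less RNA per cell cannot be told apart.

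The B2m means of both running groups lay between those of C and SS. SES mice 9, 10 and 12 had 72.2, 95.5 and 64.5 CPM, and SER mice 6, 19 and 20 had 63.5, 70.1 and 63.5 CPM. SES mouse 10 stood above every C mouse, and the other SES mice and all SER mice stood below every C mouse. Against SS, the SES mean was higher by 0.35 ± 0.13 on the log2 scale and the SER mean by 0.12 ± 0.13, and neither difference passed edgeR's test (adjusted p = 0.524 and 0.676). Without SES mouse 10 the first difference was 0.18 (adjusted p = 0.702). Against C, SER was lower by 0.47 ± 0.13 on the log2 scale without passing (edgeR adjusted p = 0.0899), and DESeq2's Wald test of the same counts gave an adjusted p of 0.0226.

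The B2m call in SS against C depended on the processing and on single mice. Without C mouse 8, C mouse 12, SS mouse 19 or SS mouse 21 the log2 fold change was −0.58, −0.60, −0.55 and −0.54 and no longer passed edgeR's test (adjusted p = 0.092, 0.0672, 0.124 and 0.101). With the Malat1 level as a covariate it was −0.39 (adjusted p = 0.468). With offsets for GC content and transcript length it was −0.24 (adjusted p = 0.284); the B2m transcript is 41.2% GC, with only 7.31% of the tested genes lower, while the other 8 genes had 53.3 to 57.3% GC. Keeping SS mouse 18 alone in its group gave −0.42 (adjusted p = 0.322). Over 19 alternatives the value stayed negative, from −0.69 to −0.24, and passed in 10. Of the 9 settings in which it was lost, 7 left edgeR with 0 calls among all genes in SS against C. The other two were transcripts as deposited (2 calls) and without C mouse 12 (78 calls).

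**Figure D2:**
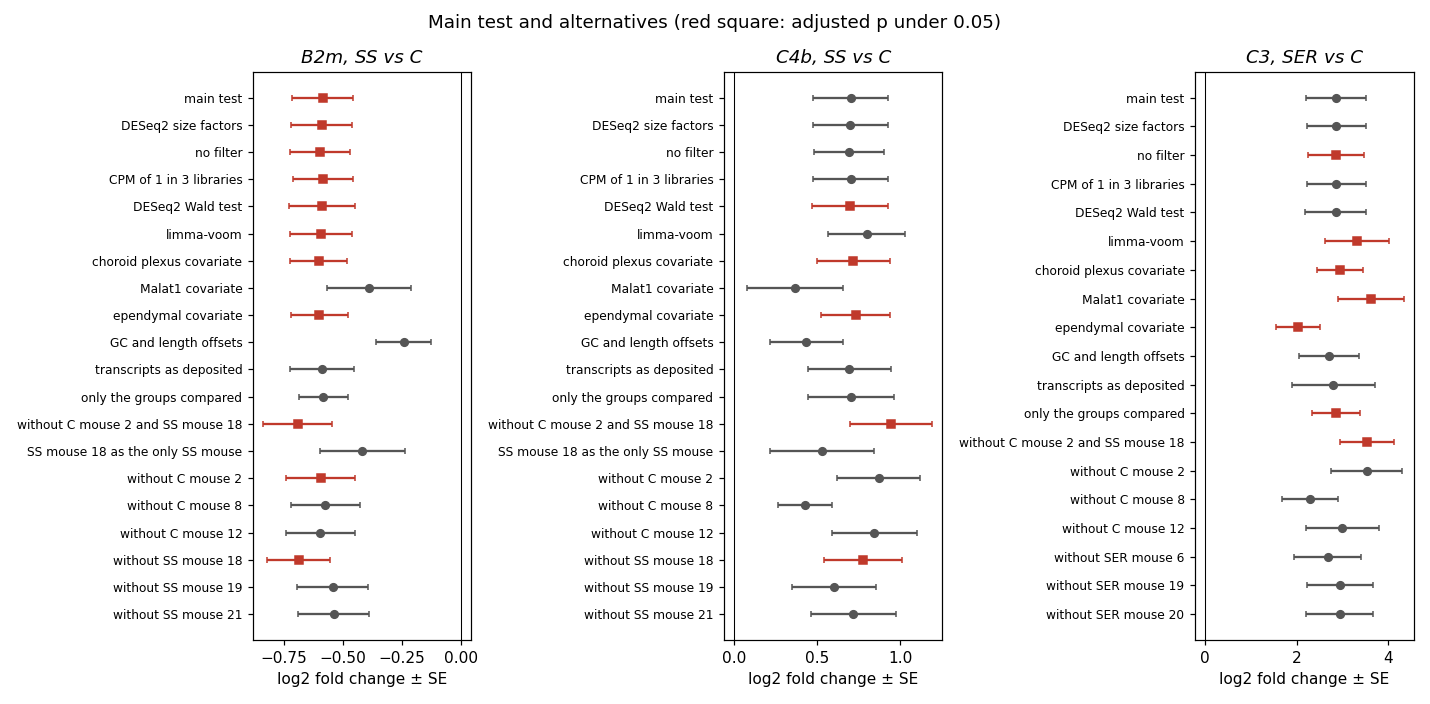
Log2 fold change ± standard error (horizontal axes) of B2m in SS against C, C4b in SS against C and C3 in SER against C, with 1 line for the main test and 1 for each alternative processing or left-out mouse; red squares have an adjusted p under 0.05 and grey circles do not. All values keep their sign, and the B2m value moves closest to 0 with GC and length offsets, at −0.24.

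Microglia and endothelial cells are rich sources of B2m in brain. The summed level of 12 microglial markers was 459 to 468 CPM in C, 390 to 456 CPM in SS, 359 to 472 CPM in SES and 499 to 528 CPM in SER. Of 12 endothelial markers the sums were 269 to 357 CPM in C, 254 to 289 CPM in SS, 209 to 309 CPM in SES and 179 to 222 CPM in SER. Microglial sums were thus lower in every SS mouse than in every C mouse, and every SER mouse was above every C mouse. The part of either cell type in the B2m result was not tested.

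Neither heavy chain gene passed in any comparison. H2-K1 was at 22.5, 17.4 and 15.6 CPM in C mice 2, 8 and 12. The SS mice 18, 19 and 21 had 18.3, 18.4 and 17.7 CPM. It was at 14.98, 26.0 and 15.6 CPM in SES mice 9, 10 and 12 and at 16.8, 18.6 and 16.6 CPM in SER mice 6, 19 and 20. All 4 groups overlapped, with group means between 17.3 and 18.9 CPM. The log2 fold change in SS against C was −0.03 ± 0.20 (edgeR adjusted p = 0.948), and its sign changed in 2 of 19 alternatives.

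H2-D1, the other classical heavy chain gene of this strain, was at 32.1, 26.3 and 27.3 CPM in C and 30.5, 22.3 and 22.5 CPM in SS, in the same order of mice. It was at 22.7, 39.9 and 20.3 CPM in SES and at 19.2, 19.0 and 22.7 CPM in SER. The 3 SER mice lay below the 3 C mice, and the other groups overlapped C. The SER difference of −0.49 ± 0.22 on the log2 scale did not pass (edgeR adjusted p = 0.26), nor did the SS difference of −0.19 ± 0.22 (adjusted p = 0.626).

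The balance of light to heavy chain mRNA was compared per length, as B2m over the sum of H2-K1 and H2-D1, each in CPM per kilobase. The ratio was 3.61, 4.64 and 4.60 in C mice 2, 8 and 12 and 3.07, 3.03 and 3.04 in SS mice 18, 19 and 21. In SES mice 9, 10 and 12 it was 4.19, 3.17 and 3.90, and in SER mice 6, 19 and 20 it was 3.78, 3.97 and 3.51. The 3 SS mice had the lowest ratios of the 12, with SES mouse 10 next. The ratio was formed after B2m had been seen to differ and is given as a description, without a test. Reads that belong to heavy chain copies could shift it. It is also not corrected for GC content, which is 41.2% in B2m, 56.3% in H2-K1 and 55.9% in H2-D1. Offsets for GC content and length moved the B2m difference of SS from C to −0.24 on the log2 scale. The part of GC content in the ratio was not tested.

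SES mouse 10 had the highest level of all 12 mice in B2m, H2-K1, H2-D1 and Tapbp. It was also the SES mouse with the most choroid plexus RNA (summed markers 5032 CPM). SS mouse 18, with 5507 CPM of the same markers, was highest of the 12 in Tap1 alone among the 9 genes. In H2-D1, C mouse 2 (32.1 CPM, markers 3789 CPM) and SS mouse 18 (30.5 CPM) came next after SES mouse 10. In H2-K1, C mouse 2 came next (22.5 CPM). In B2m it was C mouse 8 (92.9 CPM) and in Tapbp SS mouse 19 (27.1 CPM), with markers at 18.4 and 25.4 CPM. The part of choroid plexus in these values was not tested. Without SES mouse 10 the H2-K1 difference of SES from SS turned from 0.06 to −0.25 on the log2 scale and the H2-D1 difference from 0.14 to −0.22 (edgeR adjusted p = 0.704 and 0.741).

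None of the 3 genes of peptide loading passed in any comparison. Tap2, a chain of the peptide transporter, was at 8.51, 6.07 and 7.73 CPM in C and 8.60, 10.0 and 10.4 CPM in SS, so the SS mice stood just above the C mice. The difference was 0.38 ± 0.19 on the log2 scale (edgeR adjusted p = 0.21) and stayed positive in 19 alternatives. In the running groups Tap2 was at 7.11, 9.57 and 7.23 CPM (SES) and 8.28, 11 and 8.29 CPM (SER), overlapping both C and SS.

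Tap1, the partner chain, had 25 to 51 counts per library and overlapped in every comparison, at 2.43 to 3.52 CPM in C, 2.90 to 5.16 CPM in SS, 2.71 to 3.69 CPM in SES and 1.97 to 4.91 CPM in SER. Its largest difference was SS above C by 0.32 ± 0.33 on the log2 scale (edgeR adjusted p = 0.568). Tapbp, which encodes tapasin, was at 27.0, 21.6 and 19.2 CPM in C and at a narrow 26.9, 27.1 and 26.5 CPM in SS. It was at 23.4, 32.6 and 25.3 CPM in SES and 21.1, 25.5 and 24.9 CPM in SER. SER lay below SS without overlap, by 0.17 ± 0.15 on the log2 scale (edgeR adjusted p = 0.586), and C overlapped each other group. The deposited split of Tapbp between its 2 transcripts was erratic, with 6.34 to 77.6% of the counts assigned to NM_001025313 per library, and the summed value is used for that reason.

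C4b, the mouse C4 gene whose product follows C1 in the classical pathway, was higher in all 9 stressed mice than in the 3 controls, a pattern shown by 3.64% of the genes tested (530 of 14541). C mice 2, 8 and 12 had 26.8, 12.9 and 25.7 CPM. SS mice 18, 19 and 21 had 31.4, 39.9 and 34.5 CPM. SES mice 9, 10 and 12 had 36.4, 43.7 and 36.0 CPM, and SER mice 6, 19 and 20 had 44.0, 39.1 and 31.0 CPM. The 3 stressed groups overlapped each other, and C mouse 8 was the lowest of the 12.

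None of the C4b differences passed edgeR's test. The log2 fold change against C was 0.70 ± 0.23 in SS (62.8% higher; adjusted p = 0.0627), 0.84 ± 0.22 in SES (78.6%; adjusted p = 0.132) and 0.81 ± 0.23 in SER (75.8%; adjusted p = 0.0899). These comparisons share the 3 C mice. DESeq2's Wald test gave adjusted p-values of 0.0221, 0.0177 and 0.013 for the same differences. That test called 2219, 412 and 784 of all 14541 genes in these comparisons. C mouse 8 carried much of the size: without it the differences were 0.43, 0.57 and 0.55 (edgeR adjusted p = 0.167, 0.344 and 0.187). Offsets for GC content and length gave 0.44 for SS (adjusted p = 0.313), and the Malat1 covariate gave 0.37 (adjusted p = 0.65). All alternatives kept the 3 differences positive. Among the stressed groups the differences were 0.02 to 0.13 on the log2 scale, with standard errors of 0.22, and their sign changed in 1 to 3 alternatives.

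In brain, C4b is known to be made by astrocytes and oligodendrocytes. The sum of 11 astrocyte markers was 6863 to 7631 CPM in C, 6597 to 7409 CPM in SS, 7233 to 8786 CPM in SES and 9382 to 10650 CPM in SER. The sum of 9 oligodendrocyte markers was 5963 to 9814 CPM in C, 3477 to 11040 CPM in SS, 4647 to 7412 CPM in SES and 4487 to 8098 CPM in SER. The part of either cell type in the C4b values was not tested.

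C3, the central complement component on which all activation routes meet, was rare but separated SER from every other mouse. SER mice 6, 19 and 20 had 4.65, 3.27 and 3.38 CPM (59, 38 and 31 counts). C mice 2, 8 and 12 had 0.94, 0.07 and 0.60 CPM (10, 1 and 7 counts), and SS mice 18, 19 and 21 had 1.82, 0.71 and 0.17 CPM (18, 9 and 2 counts). SES mice 9, 10 and 12 had a narrow 1.32, 1.47 and 1.21 CPM (21, 22 and 16 counts). Among the genes tested, 1.24% (181) were higher in the 3 SER mice than in the other 9. C mouse 8 and SS mouse 21 lay under 3 counts, the upper limit that a count of 0 allows (0.191 to 0.322 CPM in these libraries).

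C3 averaged 3.77 ± 0.769 CPM in SER and 0.536 ± 0.436 CPM in C (SD, n = 3). The log2 fold change of 2.86 ± 0.65 narrowly missed the threshold of edgeR's test (adjusted p = 0.0528). It passed in 7 of 18 alternatives, among them no filter (2.87, adjusted p = 0.0354) and limma-voom (3.32, adjusted p = 0.0439), and ranged from 2.03 to 3.62. DESeq2 gave 2.86 with no adjusted p, because its filter on low means removed C3. Against SS the SER difference was 2.11 ± 0.61 (edgeR adjusted p = 0.123). SS mouse 18 decided that comparison: without it the difference was 3.06 (adjusted p = 0.00448), and with it as the only SS mouse 1.06. Leaving out SS mouse 18 also raised edgeR's calls among all genes in SER against SS from 7 to 2434, so the change was not particular to C3. SES lay below SER by 1.49 ± 0.57 on the log2 scale without overlap (edgeR adjusted p = 1) and above C by 1.37 ± 0.68 without overlap (adjusted p = 0.338). Without C mouse 8 the SES and SER differences from C were 0.80 and 2.30 (adjusted p = 0.651 and 0.145).

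RNA of the ventricle lining differed between the same mice. The summed level of 6 ependymal markers was 42.0, 11.5 and 18.8 CPM in C mice 2, 8 and 12, and 63.8, 11.3 and 13.9 CPM in SS mice 18, 19 and 21. It was 33.7, 57.5 and 36.4 CPM in SES mice 9, 10 and 12, and 59.1, 44.1 and 33.8 CPM in SER mice 6, 19 and 20. Among the mice outside SER, the 4 with the lowest ependymal sums also had the 4 lowest C3 levels. The ependymal sums of SES and SER overlapped. The part of ependymal RNA in the C3 values was not tested beyond the covariate that follows. With the ependymal level as a covariate, the C3 difference of SER from C was 2.03 ± 0.48 (edgeR adjusted p = 0.0401) and that from SS was 1.44 ± 0.45 (adjusted p = 0.168). A choroid plexus covariate gave 2.94 and 2.31 (adjusted p = 0.0155 and 0.0535).

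**Figure D3:**
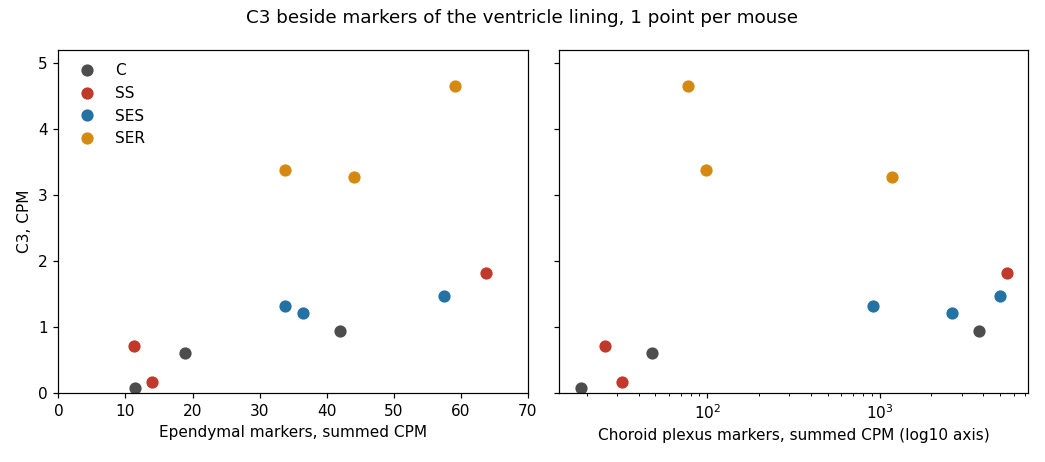
C3 in CPM (vertical axis) against the summed CPM of 6 ependymal markers (left, linear axis) and of 12 choroid plexus markers (right, log10 axis); each point is 1 mouse, coloured by group. The 3 SER mice lie at 3.27 CPM or above at ependymal sums of 33.8 to 59.1 CPM, where the SES mice lie at 1.47 CPM or below.

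Microglial and astrocyte sums were also higher in the 3 SER mice than in the other 9 (499 to 528 against 359 to 472 CPM, and 9382 to 10650 against 6597 to 8786 CPM), and their part in the C3 result was not tested. The genes closest to C3 in their pattern over the 12 mice were Dnah10, Spata18 and Ccdc180, by the root mean square difference of log2 CPM centred on each gene's mean (0.387, 0.418 and 0.519), all with 42 counts or fewer in each library. For C4b they were Mfsd2a, Pnpla7 and Dnah9 (0.202, 0.202 and 0.213), and for Cd74 Adora2b, Slc16a12 and 1110017D15Rik (0.41, 0.438 and 0.474). The SD of log2 CPM was 0.825 for Cd74 and 0.494, 0.48 and 0.579 for its nearest genes, so they resembled it only loosely.

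Cd74, the class II invariant chain, was sparse and spread widely within every group. It was at 4.02, 1.78 and 1.89 CPM in C, 3.44, 1.33 and 0.42 CPM in SS, 2.83, 3.01 and 0.90 CPM in SES and 1.26, 1.03 and 1.96 CPM in SER, from 5 to 45 counts per library. The highest mice of C and SS were C mouse 2 and SS mouse 18, which were also those with choroid plexus RNA. All group pairs overlapped. The largest difference, SER below C by 0.86 ± 0.63 on the log2 scale, did not pass (edgeR adjusted p = 0.5), and its sign changed in 1 of 18 alternatives. Differences of SS from C were not detectable at this depth: −0.58 ± 0.61 (adjusted p = 0.576), turning to 0.58 with the Malat1 covariate.

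Across the 6 comparisons, 1 of the 9 genes was called in SS against C, where 9.83% of all tested genes were called (4.63% lower), so the count is near the background. Groups did not overlap for 3 of the 9 there, Tap2 and C4b higher and B2m lower, where 26.9% of all genes did not overlap. In SER against C none was called by edgeR (background 1.19%), and 4 had an unadjusted p under 0.05, against 18.6% of all genes. DESeq2 called 2 of the 9 and 5.39% of all genes, and limma-voom 1 and 1.11%. Groups did not overlap for 4 of the 9 in SER against C, C4b and C3 higher and B2m and H2-D1 lower, against 25.3% of all genes. In SES against C edgeR called none (background 0.179%), and 1 had an unadjusted p under 0.05, against 16.2% of all genes. DESeq2 called 1 of the 9 and 2.83% of all genes, and limma-voom 0 and 0.213%. C4b and C3 did not overlap there (background 26%).

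Between stressed groups none of the 9 was called by edgeR. In SES against SS the background was 0%, and 1 of the 9 had an unadjusted p under 0.05, against 9.01% of all genes. DESeq2 and limma-voom called 0 of the 9, with 0.117% and 0% of all genes. None of the 9 separated SES from SS, against 12.2% of all genes. In SER against SS the background was 0.0481%, and 1 had an unadjusted p under 0.05, against 18.2% of all genes. DESeq2 called 1 of the 9 (C3) and 3.84% of all genes, and limma-voom 0 and 0.055%. Tapbp and C3 did not overlap there, against 16.9% of all genes. In SES against SER the background was 0.0275%, and 1 had an unadjusted p under 0.05, against 3.72% of all genes. DESeq2 and limma-voom called 0 of the 9, with 0.0413% and 0.0206% of all genes. C3 did not overlap there, against 10.8% of all genes.

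**Figure D4:**
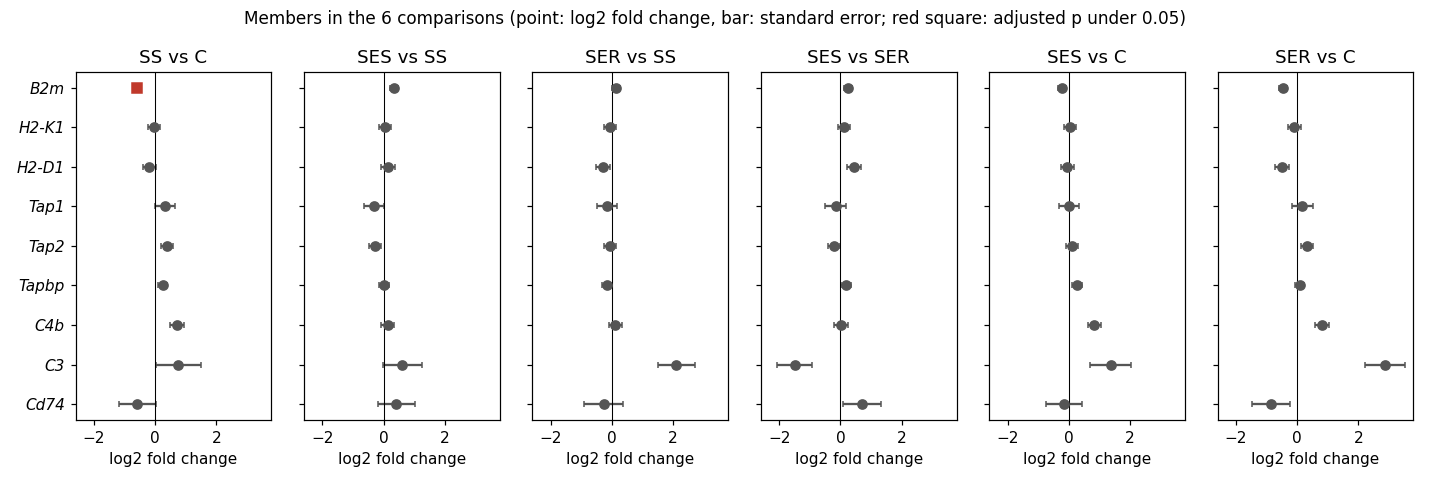
Log2 fold change of each of the 9 genes (horizontal axis, first group minus second) with its standard error as the bar, in the 6 pairwise comparisons of the 4 groups. The red square, B2m in SS against C at −0.59, has an adjusted p under 0.05; C3 has the widest range, from −1.49 in SES against SER to 2.86 in SER against C.

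The 9 genes did not move as a block. In SS against C, 5 had positive and 4 negative log2 fold changes, with a median log2 fold change of 0.25 against 0.02 over all genes. The medians in the other comparisons were 0.13 in SES against SS, −0.07 in SER against SS, 0.12 in SES against SER, 0.03 in SES against C and 0.08 in SER against C. All-gene medians lay between −0.02 and 0.02.

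Other genes of class I presentation were read from a list. Of its 26 genes present in the files, 19 passed the filter and 1 was called, in SS against C (5.26% of those tested, below the 9.83% of all genes). The lectin chaperone Canx, which holds new heavy chains, fell by 0.27 ± 0.07 on the log2 scale (edgeR adjusted p = 0.0411). Its levels were 437.9, 421.2 and 396.8 CPM in C and 350.7, 350.8 and 343.5 CPM in SS. SES (381.6 to 392.5 CPM) and SER (396.6 to 431.6 CPM) lay above SS without overlap, differences that did not pass (adjusted p = 0.555 and 0.122). H2-Q4, a nonclassical class I gene with near copies, was at 4.42, 4.90 and 3.27 CPM in SER and 6.98, 11.1 and 14.1 CPM in SS (log2 difference −1.35 ± 0.27, adjusted p = 0.0844). Of 10 class II genes in the files, 5 passed the filter and none was called in any comparison; by unadjusted p, Ctss in SS against C had the smallest in that comparison, at −0.29 ± 0.11 (adjusted p = 0.0978).

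None of the other complement components passed. C1qa, C1qb and C1qc, the chains of the initiating C1q complex made by microglia, ran from 48.4 to 65.3, 43.9 to 66.2 and 36.9 to 50.5 CPM over the 12 mice. Of 24 component genes in the files besides C3 and C4b, 8 passed the filter, and edgeR called none of them in any of the 6 comparisons. The smallest p in SER against C was that of C1qb (0.30 ± 0.11, edgeR adjusted p = 0.159), with SER at 58.6, 66.2 and 60.2 CPM and C at 43.9, 49.6 and 56.6 CPM. Microglial marker sums were also higher in SER than in C, and their part was not tested.

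Among 20 tested receptors and regulators of complement, 2 rose in SS against C and 2 in SER against C (10% of the list in each, against 9.83% and 1.19% of all genes). In SS these were Sez6l2 and Sez6l, neuronal proteins with complement-control domains, by 0.51 ± 0.12 and 0.47 ± 0.12 on the log2 scale (edgeR adjusted p = 0.0284 and 0.032). Sez6l2 was at 294.8, 192.8 and 249.4 CPM in C and at 340.3, 369.8 and 338.8 CPM in SS. It was at 311.3, 343.3 and 328.7 CPM in SES and at 304.3, 320.7 and 300.5 CPM in SER. All 9 stressed mice were thus above the 3 C mice, a pattern shown by 3.64% of the genes tested. In SER the 2 called genes were clusterin (Clu), a secreted inhibitor of the terminal complex, and C5ar1, the receptor for the C5a fragment. Clu rose by 0.44 ± 0.08 (adjusted p = 0.031), from 947.7, 897.6 and 948.4 CPM in C to 1220, 1338 and 1242 CPM in SER. SS mice 18, 19 and 21 had 1118, 1104 and 1036 CPM, and SES mice 9, 10 and 12 had 1148, 1221 and 1190 CPM. All 9 stressed mice thus lay above all 3 C mice, as 3.64% of the genes tested did. The SES difference from C, 0.35 ± 0.08, did not pass (edgeR adjusted p = 0.11). The SER call was lost without C mouse 8, C mouse 12, SER mouse 6 or SER mouse 20 (adjusted p = 0.0841, 0.0801, 0.0891 and 0.0979). Clusterin is an astrocyte product, and the astrocyte sums above were higher in SER; their part in the Clu result was not tested.

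C5ar1 separated the running mice from the sedentary ones. It was at 1.12, 0.71 and 0.34 CPM in C and 0.91, 0.63 and 0.59 CPM in SS. In SES it was at 1.70, 2.21 and 2.49 CPM and in SER at 2.68, 2.24 and 2.40 CPM, so all 6 runners lay above all 6 sedentary mice, as 0.468% of the genes tested did. The SER rise over C was 1.75 ± 0.38 on the log2 scale (edgeR adjusted p = 0.0451), passed in 7 of 18 alternatives and was lost without C mouse 8 or 12 or without any single SER mouse (adjusted p up to 0.165). The SER difference from SS was 1.78 ± 0.39 (adjusted p = 0.0916), the SES difference from C 1.55 ± 0.38 (adjusted p = 0.123) and that from SS 1.58 ± 0.38 (adjusted p = 0.524), none of which passed. C3ar1, the receptor for the C3a fragment, was at 1.62, 2.04 and 2.12 CPM in SS and 2.44, 4.38 and 5.13 CPM in SER (1.03 ± 0.39, adjusted p = 0.193). It was at 3.18, 1.78 and 1.12 CPM in C and 2.39, 3.55 and 4.22 CPM in SES. Both running groups thus overlapped C.

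Of 26 genes for interferon signalling and class I transcription, all of which passed the filter, 2 were called, both in SS against C (7.69%, below the 9.83% of all genes). The kinase Tyk2, which relays type I interferon signals, rose by 0.91 ± 0.14 (edgeR adjusted p = 0.0223), from 10.0, 8.78 and 10.2 CPM in C to 15.9, 19.2 and 19.4 CPM in SS. Nfyb, a subunit of the factor that binds CCAAT boxes, fell by 0.40 ± 0.10 (adjusted p = 0.0285), from 66.1, 68.4 and 64.0 CPM to 49.1, 48.9 and 52.0 CPM. The interferon factor Irf7 was lowest in SER, at 0.39, 0.52 and 0.33 CPM against 1.31, 1.71 and 1.46 CPM in C (−1.82 ± 0.44, adjusted p = 0.0652). These values rest on few reads, 5, 6 and 3 counts in SER and 14, 24 and 17 in C. The 5 list genes called in SS against C (Canx, Sez6l2, Sez6l, Tyk2 and Nfyb) kept their direction in 19 alternatives and passed in 8, 10, 10, 11 and 9 of them. All 5 calls were lost without C mouse 8, SS mouse 19 or SS mouse 21, with SS mouse 18 alone in its group, with the Malat1 covariate, with GC and length offsets, with only the groups compared and with transcripts as deposited. In these settings edgeR called 0 genes in all in SS against C, except for 2 with transcripts as deposited. Offsets gave −0.13, 0.25, 0.18, 0.63 and −0.16 in the same order.

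None of the 3 neuronal class I receptor genes in the files passed the filter on low counts, and the best known of them, Pirb, was at 0 to 0.52 CPM.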

How the data were processed

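RNA from 12 separate mice was sequenced from directional libraries. The authors deposited 1 table per mouse with estimated counts for 33299 RefSeq transcripts, not normalized. All values were whole, so rounding changed none. TopHat and mm10 were used, per the submitters' processing notes. Which program counted the reads, with which strand setting and annotation, is not given in the sources used here. Estimated counts were summed over 23183 symbols, none of them blank, and filtered with filterByExpr (minimum count 10) to 14541 genes. TMM factors were 0.97 to 1.039, and CPM uses sizes scaled by them. Groups were compared with edgeR 4.0.16 (R 4.3.3), by the quasi-likelihood F test, two-sided, in 1 fit of 4 group means with 8 residual degrees of freedom. The biological coefficient of variation was 15.7%. p-values were adjusted by Benjamini-Hochberg over all genes tested, and calls were made at an adjusted p under 0.05. Standard errors are derived from the F statistic. Adjusted p-values are edgeR's unless DESeq2 1.42.0 or limma 3.58.1 (voom) is named. The script was tested on simulated data.

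The 9 genes and all gene lists were chosen with earlier results of these data known. All 9 are named. From each pathway list the called genes with the 4 smallest p in a comparison could be named, or up to 4 with the smallest p where fewer were called, and for likeness the 3 nearest genes to each of the 3 genes of largest spread. Ranges and levels of C1qa, C1qc, C3ar1, Snap25, Slc17a7 and Pirb, and the pattern of C5ar1 over all groups, were chosen after their values were seen. Limits for a count of 0 cover counting error only, since reads were amplified and carry no molecular identifiers. Libraries of a group came from separate mice.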

Additional observations from a re-analysis of the deposited data

How the results depend on the processing

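No member of the 9 changed direction in a comparison where it was called. In SS against C the count of the 9 genes called was 1. It became 2 with DESeq2's Wald test, where 2219 of all 14541 genes were called. It also became 2 with the choroid plexus covariate (2030 of 14541 genes called) and the ependymal covariate (2183 of 14541). Without C mouse 2 and SS mouse 18 it was 2 as well (3644 of 14723 genes called). It became 0 with the Malat1 covariate, GC and length offsets, transcripts as deposited, only the groups compared and SS mouse 18 alone in its group, and ranged from 0 to 2 when single mice were left out. In SER against C the count of 0 became 1 with no filter (208 of 19164 genes called), limma-voom (162 of 14541) and the Malat1 covariate (96 of 14541). It became 2 with DESeq2 (784 of 14541), the choroid plexus covariate (396 of 14541) and the ependymal covariate (419 of 14541). It was also 2 with only the groups compared (281 of 14106) and without C mouse 2 and SS mouse 18 (796 of 14723). In SER against SS it became 1 with DESeq2 (558 of 14541 genes called) and without C mouse 2 and SS mouse 18 (2573 of 14723). Leaving out single mice gave 0 to 1 there. In SES against C it became 1 in the same settings (412 of 14541 and 929 of 14723 genes called). In SES against SS and SES against SER it was 0 under each of the alternatives. The cause of these changes was not tested. The added gene was C4b or, against SS, C3; in SER against C these were pairs or single genes among B2m, C4b and C3. Offsets matched 14480 of 14541 genes (99.6%), and no alternative fitted on genes moved the median log2 fold change of all genes by over 0.1 (not computed for transcripts as deposited). Over all genes, the SS against C count of 1430 ranged from 0 to 3797, that of SER against C (173) from 6 to 796, of SES against C (26) from 0 to 929, of SER against SS (7) from 3 to 2573 and of SES against SS (0) from 0 to 1430. The GC and length offsets, the ependymal covariate and SS mouse 18 alone in its group were chosen after seeing the data. A lone mouse in a group was assumed to vary like the other groups. No paired analysis was possible because mouse numbers name animals and no 2 groups share 2 numbers. Depth limits C3, Cd74 and Tap1 most, with 1 to 59, 5 to 45 and 25 to 51 counts per library.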

Other observations

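The deposited split between transcripts of 1 gene varied widely between mice. The longer Cd74 transcript NM_001042605 took 0 to 37.8% of the gene's counts per library, and the Tap1 transcript NM_001161730 took 41.2% in C mouse 8 and none in 8 of the 12 libraries. For Tapbp the share of NM_001025313 was 77.6% in SES mouse 9 and 6.34% in SER mouse 6. In the test on transcripts as deposited, the Tapbp difference of SES from SS was −0.75 on the log2 scale, against 0.01 for summed transcripts, and did not pass edgeR's test (adjusted p = 0.814).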
